A study of Danio rerio with 18 samples.

Results

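A set of 9 genes that heart muscle cells are known to use under stress was followed through 18 poly(A) RNA libraries of adult zebrafish ventricles. The members are ankrd1a and its paralogue ankrd1b, the natriuretic peptide genes nppa and nppb, the Xin repeat genes xirp1 and xirp2a, mustn1b, and the desmin genes desma and desmb. They were taken by gene identifier from a table of 25107 genes, and all 9 were among the 20462 genes that passed a filter on low counts. All fish carried tcf21vln18/vln18, a floxed allele of the epicardial transcription factor gene tcf21, with Tg(ubbR:CreERT2*)vln2 and TgBAC(tcf21:DsRed2)pd37. The first transgene gives a tamoxifen-inducible Cre driven by a ubiquitous promoter, so deletion was not limited to the epicardium. The second is a red reporter of tcf21. Fish of the cKO arm received 3 baths of 24 h in 5 µM 4-Hydroxytamoxifen. The time given is 12 days after the first bath, for the uninjured, sham and cryoinjury libraries of this arm alike. Controls had the same genotype, and their treatment label holds only a dash. The treatment protocol describes the baths without saying which fish had them, so what controls received in their place is not stated. If controls had no drug, loss of tcf21 and exposure to the drug cannot be told apart. Each arm had 3 libraries of uninjured ventricles, 3 taken 3 days after sham surgery and 3 taken 3 days after cryoinjury, in which a probe cooled in liquid nitrogen kills part of the ventricle wall. A library pooled 2 to 3 ventricles. The level of tcf21 ran from 6.28 to 18.9 CPM, the count scaled to the library's size, in the 9 control libraries and from 0.411 to 0.910 CPM in the 9 cKO libraries.

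The members mark the response of heart muscle to load and injury. ANKRD1, also called CARP, sits with titin in the sarcomere and also acts in the nucleus, and in zebrafish ankrd1a is known to be switched on in cardiomyocytes at the border of an injury. Natriuretic peptides are hormones that stretched cardiomyocytes secrete, Xin repeat proteins bind actin at the intercalated discs that join cardiomyocytes, and desmin is the intermediate filament that ties the sarcomeres together.

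Libraries held 107256750 to 191085931 counts. The ventricle label was checked against marker genes. A list of ventricle genes, most of it the myosin gene vmhc, summed to 12904.5 to 50875.6 CPM over the libraries. A list of atrial genes summed to 613 to 1301 CPM. The summed level of a list of cardiomyocyte identity genes was 55690 to 146398 CPM. Of the skeletal muscle list, the creatine kinase gene ckma, also used by heart, averaged 3428 CPM. Next came ckmb at 15.4 CPM and atp2a1 at 2.99 CPM, both with reads in every library, as had actn3a, actn3b and 1 of 2 genes named myl1. At the other end myhz1.1, myhz2 and tnnt3a were at 0 in 12, 11 and 13 libraries. All 3 control uninjured libraries and control sham replicates 1 and 2 were read in lane 2 of the flow cell and the other 13 libraries in lane 4, so comparisons within the cKO arm lie in a single lane.

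Set per transcript length, as TPM, the members spanned a very wide range of levels. Their means over 18 libraries were 2344 TPM for nppa, 1448 for desma, 396 for nppb, 284 for mustn1b, 111 for xirp1, 50.6 for xirp2a, 7.57 for ankrd1a, 0.543 for desmb and 0.136 for ankrd1b. Within a library nppa was above desma, desma above nppb, mustn1b above xirp1, xirp1 above xirp2a and xirp2a above ankrd1a in 18 of 18 libraries. The order of nppb and mustn1b was not fixed, with nppb higher in 8 of 18 libraries, and ankrd1a was above desmb in 11 of 18. Of the desmin genes 1 was abundant and 1 scarce, and ankrd1b stayed scarce in every condition while ankrd1a moved. In each library desma was at least 922 times the level of desmb in TPM.

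**Figure D1:**
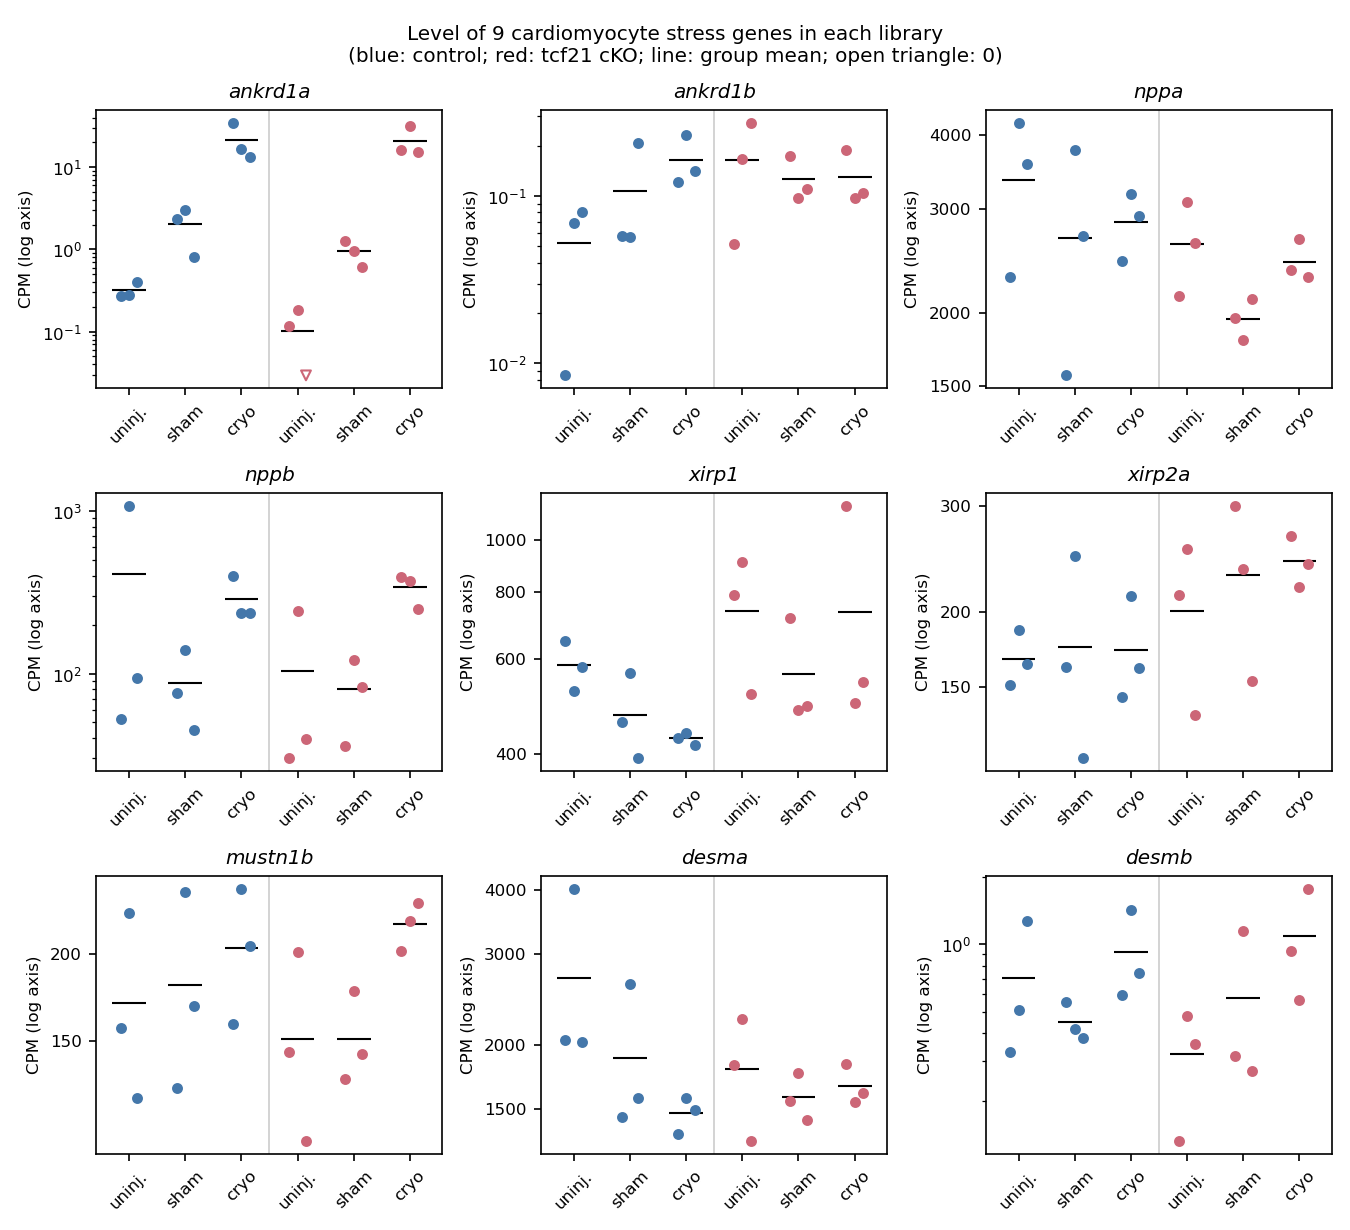
Level of each of the 9 genes in each library, in CPM on a log axis, by group; points are libraries, lines are group means and the open triangle is a library at 0. The cryoinjury libraries of ankrd1a lie at 13.4 to 34.5 CPM in both arms, above all sham and uninjured libraries, while no other member separates the conditions to that degree.

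The gene with the clearest response was ankrd1a (ENSDARG00000075263, GRCz11 chromosome 17, 23462972 to 23472265, forward strand). It was nearly silent in uninjured control ventricles, at 0.271, 0.282 and 0.406 CPM. Control sham libraries had 2.33, 2.97 and 0.804 CPM, and control cryoinjury libraries had 34.5, 16.8 and 13.4 CPM. The 3 conditions did not overlap, with sham between uninjured and cryoinjury. In the cKO arm the uninjured libraries had 0.117, 0.185 and 0 CPM, the sham libraries 1.27, 0.964 and 0.604 CPM, and the cryoinjury libraries 16.4, 31.3 and 15.4 CPM. The same order held without overlap in the cKO arm.

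Against sham, the mean ankrd1a level after cryoinjury was 10.6 times higher in control and 22.2 times higher in cKO ventricles. On the log2 scale the fitted change was 3.40 ± 0.64 (SE, n = 3 against 3, adjusted p = 0.0249 by edgeR's quasi-likelihood test with Benjamini-Hochberg adjustment) in control. In cKO it was 4.47 ± 0.67 (edgeR adjusted p = 0.0073). Averaged over both arms the change was 3.94 ± 0.46 (edgeR adjusted p = 0.000369), and every cryoinjury library exceeded every sham library. The control change missed the threshold whenever any 1 of its 6 libraries was left out, with edgeR adjusted p from 0.0559 to 0.102 and log2 changes of 2.89 to 3.78. It also missed it with the lane as a covariate, at 4.74 with edgeR adjusted p = 0.204. The cKO change was lost only without cKO sham replicate 3, at 4.24 with edgeR adjusted p = 0.0522. The averaged change passed in all 12 fits that left out 1 library.

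Against uninjured ventricles the log2 change of ankrd1a after cryoinjury was 6.07 ± 0.73 in control (edgeR adjusted p = 4.44e-05). It was 7.72 ± 0.81 in cKO (edgeR adjusted p = 3.06e-05), where 1 uninjured library stood at 0. Both passed in all alternatives run. Sham surgery alone also went with a higher level. The log2 change of sham over uninjured was 2.67 ± 0.65 in control (edgeR adjusted p = 0.0207) and 3.24 ± 0.72 in cKO (edgeR adjusted p = 0.0419). Both sham calls were at the edge. The control call was lost without control uninjured replicate 1 or 2 or control sham replicate 1 or 2, with edgeR adjusted p of 0.0546 to 0.0773. The cKO call was lost without any 1 of its 6 libraries, with edgeR adjusted p of 0.0605 to 0.137.

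After cryoinjury reads lay over all exons of the transcript. The annotation gives ankrd1a 2 transcripts, and the one of 9 exons (ENSDART00000112959) took 100% of the gene's TPM wherever it was detected. In all 6 cryoinjury libraries the 9 exons were covered, and the mean coverage per base of the transcript's exons was 87.6 to 249 in control and 88.6 to 246 in cKO. In sham libraries it was 3.62 to 19.0 in control and 3.08 to 9.34 in cKO. All 9 exons were covered in every sham library except control sham replicate 3, with 7. Uninjured libraries had reads over 7, 5 and 8 of the 9 exons in control and 4, 4 and 0 in cKO. Exon 1 had lower coverage than exon 9 in cryoinjury ventricles, with means of 26.9 against 189 in control and 19.5 against 211 in cKO.

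**Figure D2:**
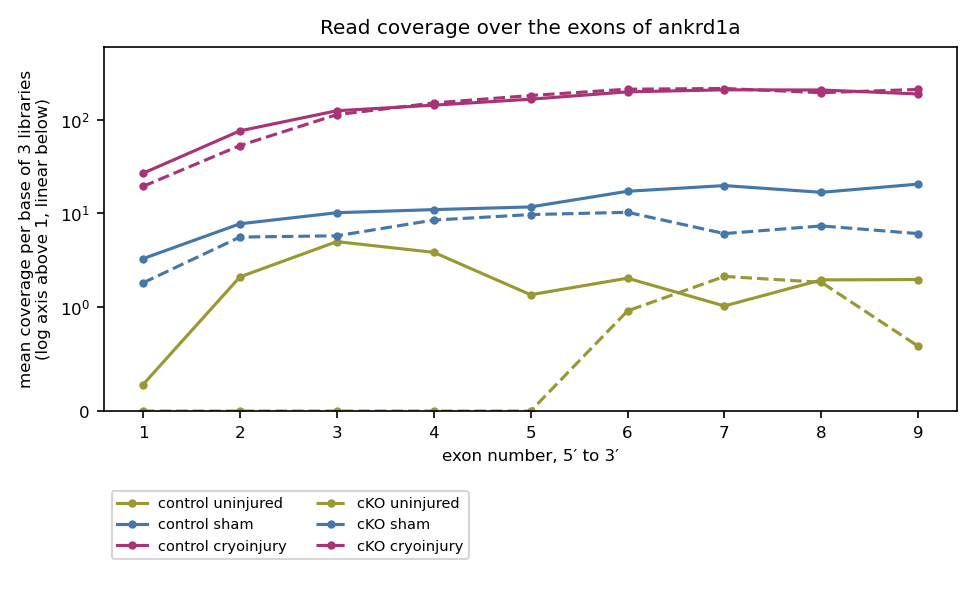
Mean coverage per base of each of the 9 exons of ankrd1a from 5′ to 3′, on an axis that is logarithmic above 1, with 1 line per group of 3 libraries. The cryoinjury lines of both arms run together over all 9 exons, reaching means of 209 and 216 at exon 7.

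The paralogue ankrd1b (ENSDARG00000076192, chromosome 12, 16440708 to 16446373, forward strand) stayed between 0.00848 and 0.274 CPM, which is 1 to 35 counts. It had no call in any comparison. Control uninjured libraries had 0.00848, 0.0689 and 0.0800 CPM and control cryoinjury libraries 0.121, 0.231 and 0.142 CPM, which did not overlap. That log2 change was 1.62 ± 1.02 and did not pass (edgeR adjusted p = 0.278). In cKO the uninjured libraries had 0.0514, 0.167 and 0.274 CPM and the cryoinjury libraries 0.187, 0.0971 and 0.104 CPM, which overlapped. The scarcity of its reads limits what could be detected.

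The B-type natriuretic peptide gene nppb (ENSDARG00000052958, chromosome 8, 48609521 to 48610544, forward strand) was the second member to separate cryoinjury from sham in both arms. Sham libraries had 75.8, 140 and 44.9 CPM in control and 35.8, 122 and 82.2 CPM in cKO. Cryoinjury libraries had 397, 235 and 235 CPM in control and 394, 371 and 251 CPM in cKO. All 6 cryoinjury libraries thus lay above all 6 sham libraries. The mean level was 3.32 times higher in control and 4.24 times higher in cKO. Taken arm by arm, all cryoinjury libraries lay above all sham libraries for 14.8% of all genes tested in control and 16.7% in cKO. The share of genes that did so in both arms is not given, so how unusual the separation of nppb is was not tested.

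The fitted log2 changes of nppb were 1.73 ± 0.96 (edgeR adjusted p = 0.395) and 2.08 ± 0.97 (edgeR adjusted p = 0.316), and the averaged change was 1.91 ± 0.68 (edgeR adjusted p = 0.0818), so none passed the threshold. The averaged change passed with the replicate number as a block (2.17, edgeR adjusted p = 0.0235). For cryoinjury against sham, however, libraries of the same replicate number did not always deviate alike in the check described below. The correlations of deviations were -0.027 to 0.140 in control and -0.013 to 0.041 in cKO. The averaged change also passed by DESeq2's Wald test (1.93, adjusted p = 0.0294) and with uninjured libraries left out of the fit (1.90, edgeR adjusted p = 0.00345). With the groups of an arm compared alone the change passed in control (1.74, edgeR adjusted p = 0.0480) and in cKO (2.08, edgeR adjusted p = 0.0373). Uninjured libraries carried most of the spread. They had 52.3, 1077 and 94.5 CPM in control and 30.1, 243 and 39.6 CPM in cKO. Replicate 2 was thus the highest uninjured library in both arms, and in control it exceeded every cryoinjury library.

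Control uninjured replicate 2 also had the highest levels of nppa and desma in the series, at 4199 and 4020 CPM. The atrial marker list, most of it the myosin gene myh6, summed to 619 CPM there, the lowest of the 3 control uninjured libraries, which reached 840 CPM. The cause of the high levels in that library was not tested. The log2 change of nppb for cryoinjury over uninjured control ventricles was -0.50 ± 0.93 (edgeR adjusted p = 0.760) with that library and 1.98 (edgeR adjusted p = 0.103) without it. With the library kept, it was 0.51 with the replicate number as a block and 0.77 with the lane as a covariate, so its sign was not settled. In cKO the change of cryoinjury over uninjured was 1.70 ± 0.96 (edgeR adjusted p = 0.285). For sham against uninjured control ventricles the change was -2.23 ± 0.97 (edgeR adjusted p = 0.189) with the library and 0.25 (edgeR adjusted p = 0.924) without it.

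The A-type gene nppa (ENSDARG00000052960, chromosome 8, 48613040 to 48617664, forward strand) starts 2495 bases downstream of the end of nppb, on the same strand. Its correlation with nppb over the 18 libraries was 0.48 in log2 CPM, and 0.51 for deviations from the group means. Uninjured control libraries had 2296, 4199 and 3572 CPM, sham libraries 1564, 3775 and 2702 CPM, and cryoinjury libraries 2447, 3182 and 2918 CPM. Those 3 conditions overlapped. Uninjured cKO libraries had 2137, 3084 and 2627 CPM, sham libraries 1954, 1797 and 2106 CPM, and cryoinjury libraries 2364, 2663 and 2299 CPM. The cKO cryoinjury libraries lay above the sham libraries, by 1.25 times in the mean, without a call.

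The balance of both peptide genes within a library differed between cryoinjury and sham. The ratio of nppa to nppb in TPM was 3.13 to 6.86 after cryoinjury and 10.5 to 30.5 after sham in control ventricles. In cKO ventricles it was 3.05 to 4.66 after cryoinjury and 7.49 to 27.7 after sham. The ranges of cryoinjury and sham did not overlap in either arm. This largely restates the separation of nppb. From sham to cryoinjury mean nppa in CPM changed 1.06 times in control and 1.25 times in cKO, against 3.32 and 4.24 times for nppb. The share of other gene pairs that separate in this way was not taken. With 3 against 3 libraries an exact permutation test cannot go below p = 0.1. Uninjured libraries had ratios of 1.98 to 22.3 in control, where replicate 2 was the lowest, and of 6.45 to 36.1 in cKO.

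Beyond the members, a list of 14 genes for further natriuretic peptides, their processing enzymes, receptors and kinases was examined, of which 11 were tested. In the averaged comparison of cryoinjury with sham 1 of the 11 was called higher and 0 lower, where 6.63% of all genes tested were called higher and 5.11% lower. The list's median log2 change was 0.22 against 0.00 over all genes. That gene was nppc, which encodes C-type natriuretic peptide. It had 0.0920, 0.247 and 0.0696 CPM in control sham, 3.45, 1.72 and 2.38 CPM in control cryoinjury, 0.0303, 0.129 and 0.153 CPM in cKO sham, and 2.38, 1.24 and 0.710 CPM in cKO cryoinjury libraries. All 6 cryoinjury libraries were above all 6 sham libraries, and 5 of the 6 uninjured libraries were at 0. The averaged log2 change was 3.99 ± 0.61 (edgeR adjusted p = 0.0017) and passed in all 12 fits that left out 1 library. Its change in either arm alone was lost whenever a library was left out, with edgeR adjusted p of 0.0736 to 0.131 in control and 0.0815 to 0.156 in cKO.

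The Xin repeat gene xirp1 (ENSDARG00000030722, chromosome 2, 23749614 to 23768832, reverse strand) had 650, 524 and 580 CPM in control uninjured, 458, 567 and 393 CPM in sham and 428, 438 and 416 CPM in cryoinjury libraries. In cKO uninjured libraries had 790, 912 and 517 CPM, sham libraries 718, 483 and 492 CPM, and cryoinjury libraries 1159, 497 and 546 CPM. Control cryoinjury libraries were tightly grouped and lay below the uninjured ones, while 1 cKO cryoinjury library stood far above the others. A second, short gene model of 318 bases that the name table also calls xirp1 begins 4245 bases beyond this one. It was kept apart and had 0.551 to 4.67 CPM.

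The larger relative xirp2a (ENSDARG00000071113, chromosome 6, 10170241 to 10233650, reverse strand) ranged from 114 to 300 CPM over the 18 libraries. Its group means lay between 167 and 175 CPM in the 3 control groups and between 201 and 243 CPM in the 3 cKO groups. Within each arm the 3 conditions overlapped. Between arms the cryoinjury libraries did not, with 268, 220 and 241 CPM in cKO and 144, 212 and 161 CPM in control. The transcript of 4032 bases took 69.2% to 84.2% of the gene's TPM and the one of 10784 bases 14.9% to 30.3%.

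The gene mustn1b (ENSDARG00000089086, chromosome 11, 18249809 to 18253111, reverse strand) encodes a small protein of developing and regenerating muscle. Uninjured libraries had 156, 229 and 124 CPM in control and 144, 201 and 108 CPM in cKO. The cKO sham libraries had 132, 177 and 144 CPM and the cKO cryoinjury libraries 202, 223 and 237 CPM, without overlap. Control sham libraries had 129, 245 and 169 CPM and control cryoinjury libraries 159, 248 and 205 CPM, which overlapped. The log2 changes were 0.55 ± 0.27 in cKO (edgeR adjusted p = 0.343), 0.17 ± 0.27 in control (edgeR adjusted p = 0.836) and 0.36 ± 0.19 averaged (edgeR adjusted p = 0.247). The cKO change passed with the groups compared alone (edgeR adjusted p = 0.0459). For cryoinjury over uninjured in cKO it was 0.55 ± 0.27 (edgeR adjusted p = 0.217), and 0.0466 with the replicate block. Neither cKO change passed in a fit that left out 1 library.

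The abundant desmin gene desma (ENSDARG00000058656, chromosome 9, 7515864 to 7539326, reverse strand) had 2040, 4020 and 2028 CPM in uninjured control ventricles. Control sham libraries had 1448, 2629 and 1579 CPM and control cryoinjury libraries 1342, 1577 and 1497 CPM. Cryoinjury lay below uninjured without overlap. The log2 change was -0.87 ± 0.27 (edgeR adjusted p = 0.0269), the only call of a lower member. The call was lost without control uninjured replicate 2 (-0.47, edgeR adjusted p = 0.194) and without any 1 of the control cryoinjury libraries, with edgeR adjusted p of 0.0573 to 0.0901. Scaled to library totals in place of TMM, under which the median of all genes moved up by 0.51 in that comparison, it was -0.42 (edgeR adjusted p = 0.285). With the lane as a covariate it was -0.50 (edgeR adjusted p = 0.645). In cKO the uninjured libraries had 1830, 2245 and 1300 CPM and the cryoinjury libraries 1835, 1549 and 1614 CPM, which overlapped.

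The scarce desmin gene desmb (ENSDARG00000005221, chromosome 6, 13871641 to 13891727, reverse strand) had 0.552, 0.418 and 0.380 CPM in control sham and 0.591, 1.43 and 0.742 CPM in control cryoinjury libraries. These groups did not overlap, but the fitted log2 change of 1.03 ± 0.68 did not pass (edgeR adjusted p = 0.494). Control uninjured libraries, at 0.331, 0.507 and 1.27 CPM, overlapped both. The cKO sham libraries had 0.318, 1.14 and 0.272 CPM and the cryoinjury libraries 0.931, 0.566 and 1.77 CPM, which overlapped. The cKO uninjured libraries had 0.132, 0.476 and 0.360 CPM, all below the cryoinjury ones, with a log2 change of 1.75 ± 0.69 that did not pass (unadjusted p = 0.0215, edgeR adjusted p = 0.117). Its averaged change was 0.97 ± 0.48 (edgeR adjusted p = 0.213).

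As a group, then, 1 of 9 members passed for cryoinjury against sham in control, where 1.37% of all genes tested passed. In cKO 1 of 9 passed, against 1.46% of all genes. In the averaged comparison 1 of 9 passed, against 11.7% of all genes. The called member was ankrd1a each time. The median log2 change of the 9 members was 0.17 in control, 0.38 in cKO and 0.32 averaged, against 0.00 over all genes in each. The 8 other members ran from -0.36 to 1.73 in control and from 0.03 to 2.08 in cKO. By overlap alone, 3 of 9 members had all cryoinjury libraries above all sham libraries in control, where 14.8% of all genes did, namely ankrd1a, nppb and desmb. In cKO 4 of 9 did, against 16.7% of all genes, namely ankrd1a, nppb, nppa and mustn1b.

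For cryoinjury against uninjured ventricles 2 of 9 members passed in control, ankrd1a higher and desma lower, where 23.7% of all genes passed. In cKO 1 of 9 passed, again ankrd1a, against 10.6% of all genes. For sham against uninjured 1 of 9 passed in control and 1 of 9 in cKO, against 7.63% and 1.05% of all genes, and both were ankrd1a. Of all genes 13.1% were called higher and 10.6% lower after cryoinjury in that control comparison. Without ankrd1a, 0 or 1 of the 8 other members passed in each of these comparisons.

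**Figure D3:**
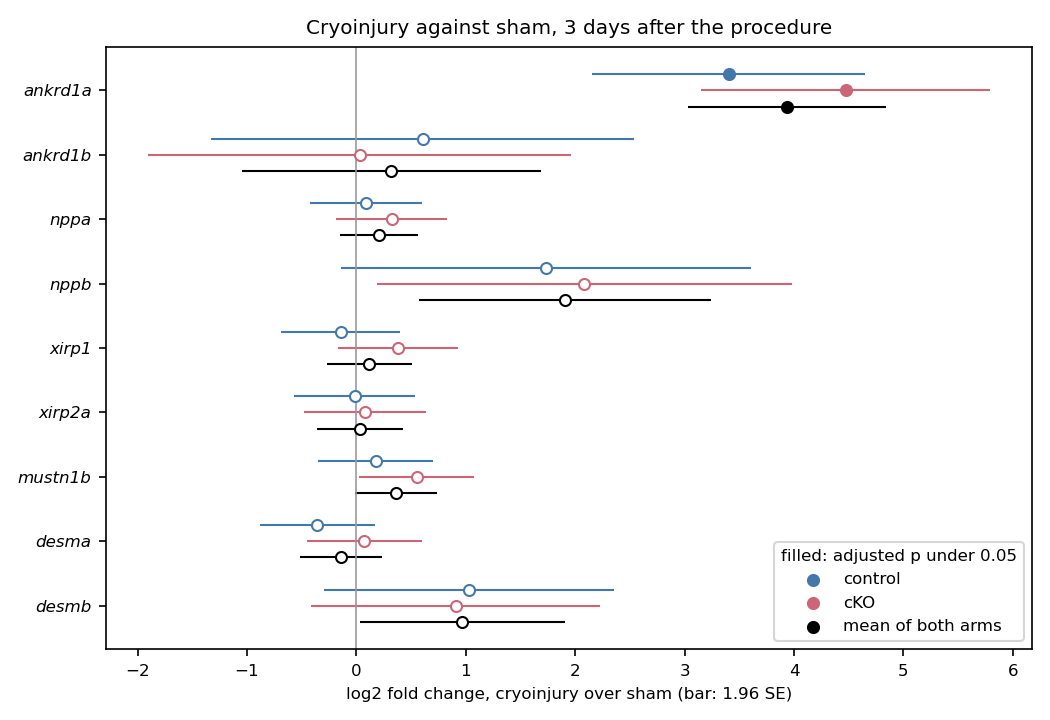
Log2 fold change of cryoinjury over sham for each of the 9 genes in control, in cKO and averaged over both arms, with bars of 1.96 SE and filled points where the edgeR adjusted p was under 0.05. The filled points are those of ankrd1a, at 3.40, 4.47 and 3.94, and nppb is the next highest at 1.73, 2.08 and 1.91.

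The cKO arm was compared with control in each condition. In uninjured ventricles 0 of 9 members passed, where 0.132% of all genes passed. After sham 0 of 9 passed, against 0.0147% of all genes, and after cryoinjury 0 of 9, against 0.00489%. At an unadjusted edgeR p under 0.05 there were 2, 0 and 1 members, against 13.7%, 8.04% and 7.59% of all genes. Uninjured, the lowest log2 difference of a member, cKO over control, was that of nppb at -1.97, with control replicate 2 at 1077 CPM. The uninjured cKO libraries of ankrd1a, at 0 to 0.185 CPM, lay below the control ones, at 0.271 to 0.406 CPM. DESeq2's Wald test also called 0 members in each condition. Over all genes it called 593 uninjured, 175 after sham and 103 after cryoinjury. The log2 difference of ankrd1a, cKO over control, was -1.68 ± 0.74 uninjured (edgeR adjusted p = 0.329), -1.10 ± 0.60 after sham (edgeR adjusted p = 0.697) and -0.03 ± 0.58 after cryoinjury (edgeR adjusted p = 0.997). All control uninjured and 2 of 3 control sham libraries were read in lane 2 and all cKO libraries in lane 4, so the arms differ in lane there, and a lane term rests on the 3 control sham libraries, the only group read in both lanes. With that covariate the differences of ankrd1a were 0.040 uninjured and 0.24 after sham. After cryoinjury the interval of 1.96 SE around the difference of ankrd1a fitted without that covariate ran from -1.17 to 1.097.

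The member nearest to a difference between arms after cryoinjury was xirp1, at 0.78 ± 0.28 on the log2 scale (unadjusted p = 0.0132, edgeR adjusted p = 0.491). Its 3 cKO libraries, at 497 to 1159 CPM, lay above the control libraries at 416 to 438 CPM. Without cKO cryoinjury replicate 1 the difference was 0.29 (edgeR adjusted p = 1). In uninjured and sham ventricles it was 0.34 ± 0.28 and 0.26 ± 0.28 (edgeR adjusted p = 0.627 and 0.937). There 2 of 9 members, xirp1 and xirp2a, had all cKO cryoinjury libraries above all control ones, where 11.3% of all genes did.

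Whether the response to cryoinjury itself differed between arms was tested as an interaction. For cryoinjury against sham 0 of 9 members passed, and 0% of all genes did. For cryoinjury against uninjured 0 of 9 passed, against 0.0244% of all genes. At an unadjusted edgeR p under 0.05 there were 0 members in either, against 2.3% and 11.2% of all genes. DESeq2's Wald test called 0 members in both. Over all genes that test called 3 relative to sham and 318 relative to uninjured. The log2 response of ankrd1a to cryoinjury, cKO minus control, was 1.07 ± 0.83 relative to sham (edgeR adjusted p = 1.00) and 1.65 ± 0.94 relative to uninjured (edgeR adjusted p = 0.535). The intervals of 1.96 SE around these values were -0.56 to 2.70 and -0.19 to 3.48. With the lane as a covariate the values for ankrd1a turned to -0.27 and -0.075.

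All these levels are shares of the RNA of a whole ventricle, in which fewer cells of a type and less RNA per cell cannot be told apart. The summed cardiomyocyte identity list was lower after cryoinjury than after sham in both arms, at 55690 to 66117 against 78134 to 96982 CPM in control and at 73089 to 87176 against 102836 to 109457 CPM in cKO. Averaged over arms, 0 of its 12 tested genes were called higher and 5 lower, against 6.63% and 5.11% of all genes, with a median of -0.40. They include atp2a2a, the calcium pump of the sarcoplasmic reticulum, at -0.80 ± 0.13 (edgeR adjusted p = 0.0019), mybpc3, a thick filament protein, at -0.71 ± 0.13 (edgeR adjusted p = 0.0028), and the myosin light chain genes cmlc1 at -0.47 ± 0.12 (edgeR adjusted p = 0.0197) and myl7 at -0.41 ± 0.12 (edgeR adjusted p = 0.0365). The first 2 kept their call in all 12 fits that left out 1 library, cmlc1 in 11 and myl7 in 2.

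Set against that list, more members stood higher after cryoinjury. The level of a member per 1000 CPM of the list separated cryoinjury from sham without overlap, upward, for 6 of 9 members in control, where the same ratio did so for 40.9% of all genes tested. In cKO it did so for 7 of 9, against 37.7% of all genes. Among these 7, xirp1 was nearly tied, with a lowest cryoinjury ratio of 6.562 and a highest sham ratio of 6.561. Downward it did so for 0 of 9 in each arm, against 1.21% and 2.19% of all genes. For nppa the ratio was 43.9 to 48.1 after cryoinjury and 16.7 to 38.9 after sham in control, and 27.1 to 36.4 against 17.5 to 20.0 in cKO. For mustn1b it was 2.85 to 3.75 against 1.38 to 2.53 in control and 2.32 to 3.05 against 1.21 to 1.72 in cKO. For desma it was 23.4 to 24.1 against 15.5 to 27.1 in control, which overlapped, and 19.4 to 21.2 against 13.6 to 17.1 in cKO. The list itself was lower after cryoinjury, so a gene with a steady share of RNA stands higher in this ratio.

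**Figure D4:**
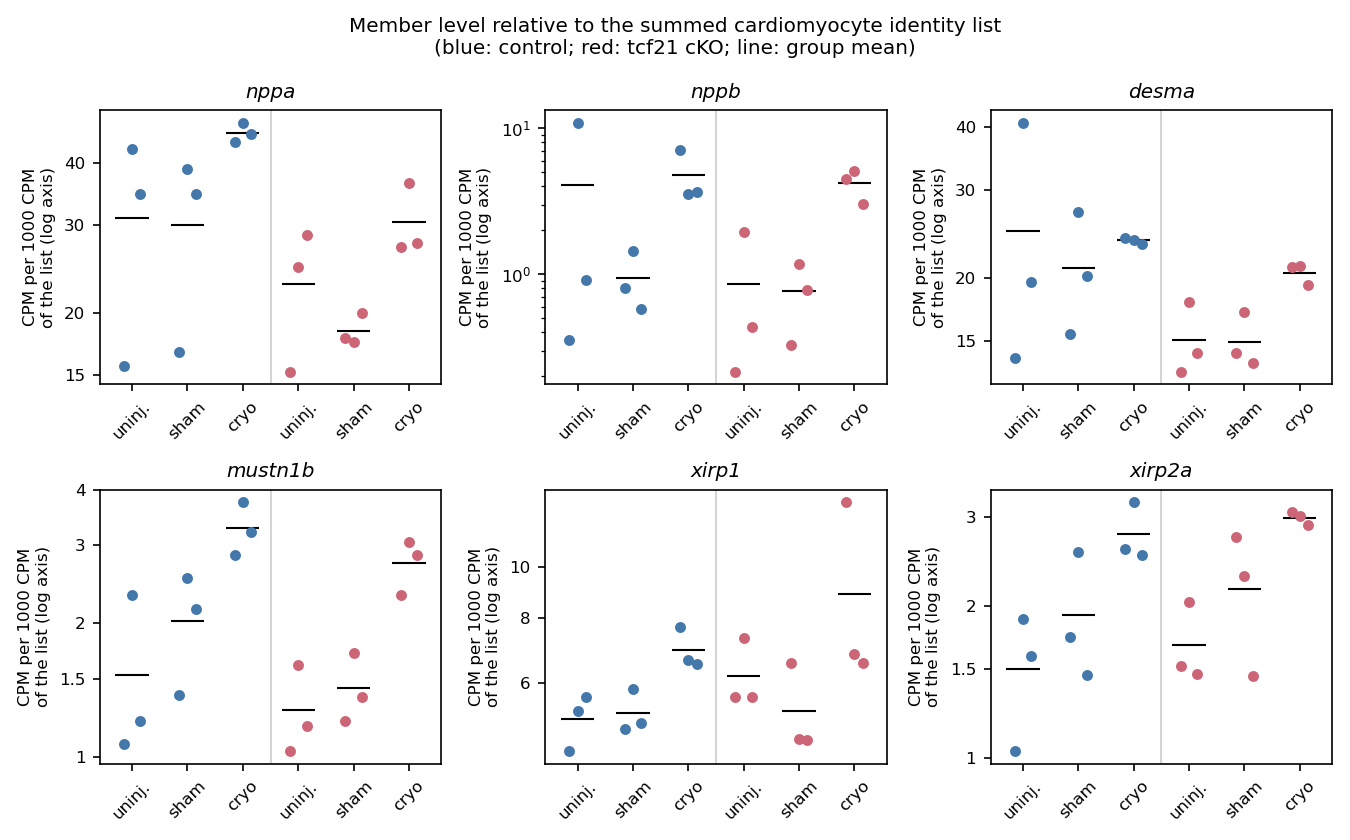
Level of 6 members per 1000 CPM of the summed cardiomyocyte identity list in each library, on a log axis; points are libraries and lines group means. In both arms the cryoinjury points of nppa, nppb, mustn1b and xirp1 lie above all sham points of that arm, with nppa at 43.9 to 48.1 in control. For xirp1 in cKO the lowest cryoinjury point, at 6.562, all but meets the highest sham point, at 6.561.

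A list of genes whose products mostly work beside the members in the sarcomere, together with paralogues of members, was examined next. Its 28 tested genes were mainly partner genes of the Z-disc and the intercalated disc, and no titin gene was matched. Of these 28, 0 were called higher and 3 lower in the averaged comparison of cryoinjury with sham. Their median log2 change was -0.26. Over all genes tested 6.63% were called higher and 5.11% lower. The 3 were smyd1b, a myosin chaperone and methyltransferase, at -0.46 ± 0.10 (edgeR adjusted p = 0.0086), actn2b, a Z-disc actinin, at -0.56 ± 0.14 (edgeR adjusted p = 0.0165), and ldb3b, a Z-disc scaffold, at -0.51 ± 0.14 (edgeR adjusted p = 0.0247). They kept the call in 12, 11 and 7 of 12 fits that left out 1 library. Against uninjured control ventricles 1 gene of this list was called higher and 11 lower after cryoinjury, where 13.1% and 10.6% of all genes were. Those uninjured libraries were read in lane 2 and the cryoinjury libraries in lane 4. With the lane as a covariate 662 of all genes were called there in place of 4852. In cKO 0 genes of the list were called higher and 1 lower after cryoinjury, where 10.6% of all genes were called. After sham in control 1 was called higher and 1 lower, where 7.63% of all genes were called. The higher one was mustn1a, the paralogue of the member mustn1b, at 1.60 ± 0.37 (edgeR adjusted p = 0.0145). Its mean over the libraries was only 0.710 CPM.

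Of 17 tested genes of a list of fetal and dedifferentiation genes, 4 were called higher and 2 lower in the averaged comparison of cryoinjury with sham, with a median of 0.28. Over all genes tested 6.63% were called higher and 5.11% lower. Higher were nes, the gene of the filament protein nestin, at 1.00 ± 0.24 (edgeR adjusted p = 0.0146), and both genes named tagln, an actin-binding protein of smooth muscle, at 1.25 ± 0.22 and 0.78 ± 0.16 (edgeR adjusted p = 0.0025 and 0.0053). Lower was the ventricular myosin gene vmhc at -0.63 ± 0.13 (edgeR adjusted p = 0.0074). The call of nes was kept in 11 of 12 fits that left out 1 library and that of vmhc in 12. Of 19 tested targets and factors of YAP, TEAD and SRF, 2 were called higher and 1 lower in the same comparison, with a median of -0.04. These counts stand against the same shares of 6.63% and 5.11% of all genes. The matricellular genes ccn2a and ccn1 rose by 0.94 ± 0.25 and 1.04 ± 0.32 (edgeR adjusted p = 0.0233 and 0.0460), and srfb, an SRF gene, fell by 0.84 ± 0.23 (edgeR adjusted p = 0.0283). These calls were kept in 8, 2 and 5 of 12 such fits.

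Summed levels of several other marker lists were also higher after cryoinjury than after sham. The epicardial list summed to 826 to 1219 CPM after cryoinjury against 427 to 492 CPM after sham in control, and to 833 to 1219 against 322 to 446 CPM in cKO, and 3 of its 6 genes were called higher in the averaged comparison, where 6.63% of all genes were. The macrophage list summed to 412 to 557 against 182 to 265 CPM in control and to 329 to 407 against 144 to 310 CPM in cKO, with 2 of 8 called higher. The smooth muscle list summed to 258 to 426 against 190 to 264 CPM in control, which overlapped, and to 379 to 417 against 195 to 228 CPM in cKO, with 2 of 8 called higher. Those 2 were the tagln genes already named, which stand in both this list and the fetal list. The atrial list, most of it the myosin gene myh6, summed to 743 to 913 against 643 to 723 CPM in control and to 1063 to 1301 against 821 to 969 CPM in cKO, without overlap. Of its 7 tested genes 0 were called higher and 1 lower, with a median of -0.51, so the sum and the median differ in sign. The endothelial and endocardial list summed to 594 to 632 against 662 to 714 CPM in control and to 678 to 730 against 738 to 976 CPM in cKO, with 0 of 6 called in either direction and a median of -0.18. The part of these cells in the levels of ankrd1a, nppa and nppb was not tested.

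The genes whose level over the 18 libraries was most like that of ankrd1a were not members. By Pearson's correlation of log2 CPM, among genes with a symbol and a mean of at least 5 CPM, they were snai2 (0.967), s100u (0.959), TAGLN (ENSDARG00000033466, 0.957), zgc:153867 (0.955) and has1 (0.953). Here snai2 encodes a zinc finger transcription factor and has1 a hyaluronan synthase. TAGLN is the same gene as the tagln given above at 0.78 ± 0.16. The 18 libraries share the same 6 groups, so these values are a description of a common order of conditions. By Spearman's rank correlation the 5 genes took places 8, 14, 43, 10 and 6.

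The gene has1 followed the same steps as ankrd1a, with group means of 0.225, 3.83 and 17.1 CPM in uninjured, sham and cryoinjury control ventricles and of 0.123, 1.40 and 7.94 CPM in cKO. For snai2 the means were 4.73, 8.26 and 18.1 CPM in control and 3.26, 7.60 and 14.3 CPM in cKO. These genes were chosen for this pattern, so no test of it is given. Among the members the correlation with ankrd1a was 0.58 for mustn1b, 0.56 for nppb, 0.54 for desmb, 0.26 for xirp2a, 0.12 for ankrd1b, -0.04 for nppa, -0.20 for xirp1 and -0.24 for desma.

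**Figure D5:**
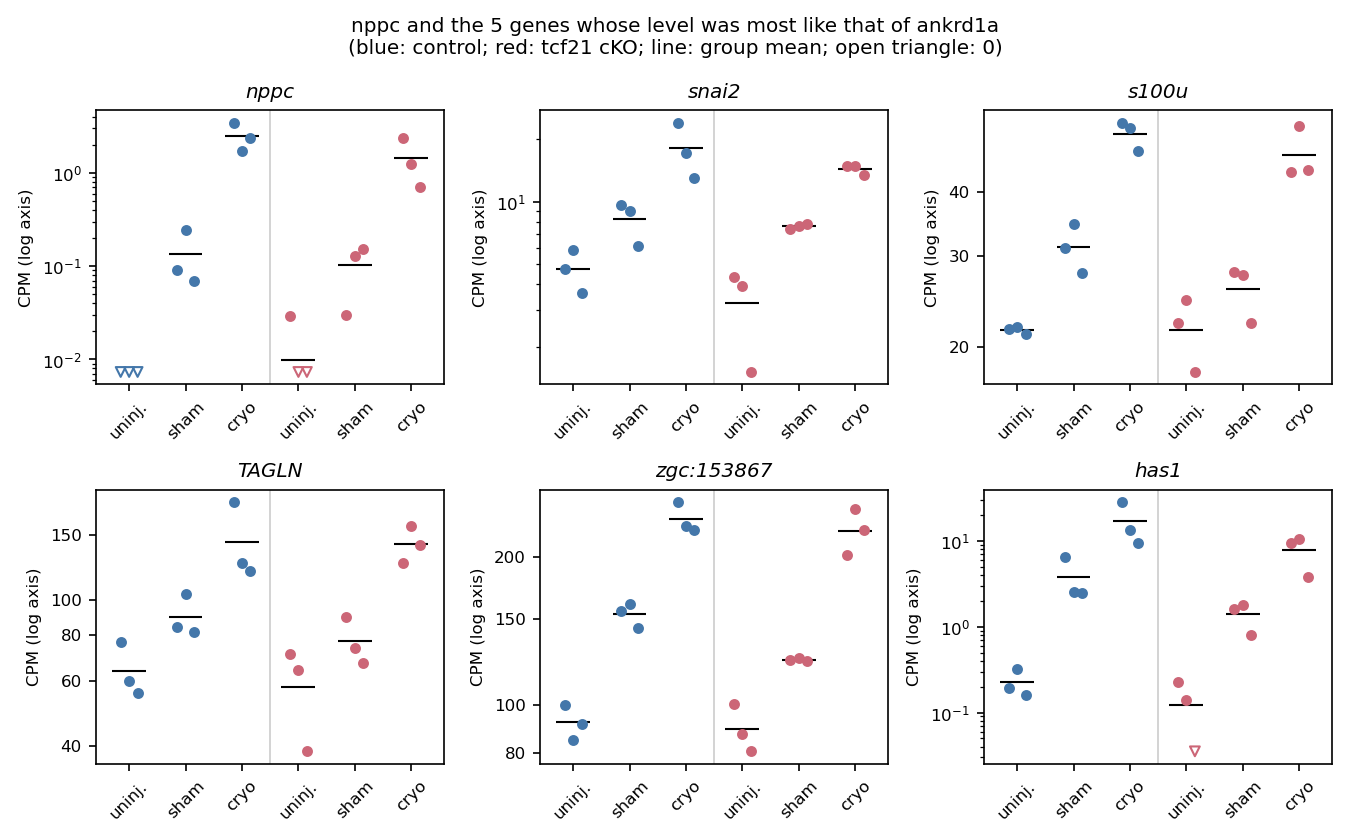
Level of nppc and of the 5 genes most like ankrd1a in each library, in CPM on a log axis; points are libraries, lines group means and open triangles libraries at 0. In each panel and arm the cryoinjury libraries lie above the sham libraries; for has1 the control means climb from 0.225 through 3.83 to 17.1 CPM.

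Among themselves the members did not vary as a block. Taking each library's deviation from its group mean in log2 CPM, mustn1b and desma went together most closely, with a correlation of 0.87 over 18 libraries, followed by nppb and desma at 0.77 and xirp2a and desma at 0.69. The correlation of xirp1 with xirp2a was 0.62. Within groups ankrd1a went most closely with xirp2a, at 0.65, and its correlation with nppb was 0.31. The value for xirp2a includes cKO uninjured replicate 3, with ankrd1a at 0 and xirp2a lowest of its group at 134 CPM. In both sham groups the libraries had the same order for both genes. After cryoinjury the library highest in ankrd1a was lowest in xirp2a, at 34.5 and 144 CPM in control and 31.3 and 220 CPM in cKO. Control uninjured replicate 2 was the highest of its group in desma, nppb and mustn1b, with 4020, 1077 and 229 CPM. How far these correlations rest on that library was not tested. In control cryoinjury nppb was highest in replicate 1, at 397 CPM, where desma was lowest, at 1342 CPM. In each other group the same library was highest in both.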

How the data were processed

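The deposited gene table holds the authors' estimated counts, whole numbers not scaled for depth. Per the file headers StringTie 2.1.1 quantified each library against Ensembl release 109 of GRCz11, and the submitters' processing notes also name FastQC 0.11.9, Trim Galore 0.6.10 and HISAT2 2.1.0. The deposited library files give coverage, FPKM and TPM per transcript. A gene's coverage times length over 75 equalled its deposited count within 1 for 100% of genes in every library, so 1 count stands for 75 aligned bases. TPM was summed per gene here, and FPKM was only used to check the order of levels.

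Low counts were filtered by group with filterByExpr and libraries scaled by TMM, edgeR's trimmed mean. The two-sided robust quasi-likelihood test of edgeR 4.0.16 (R 4.3.3) was run on 1 fit of all 18 libraries, with p-values adjusted over 20462 genes and called under 0.05. DESeq2 1.42.0 was an alternative. CPM was taken on the TMM scale. Log2 CPM had 2 counts added beforehand. Each SE is the size of the log2 change divided by the square root of the F value of edgeR's test. An interval of 1.96 SE can therefore leave out 0 where that test's p is above 0.05. For mustn1b in cKO cryoinjury against sham it ran from 0.021 to 1.08, with an unadjusted edgeR p of 0.0578. On simulated data for control cryoinjury against sham over 20462 genes, the test recovered 82.5% of 200 genes changed 4-fold, with 4 false calls. The changed genes were drawn only from those with a mean above 1 CPM. The means of ankrd1b, desmb, nppc and mustn1a, at 0.124, 0.677, 0.702 and 0.710 CPM, lay below that, so the recovery does not cover them. The changed genes were raised and lowered in equal number, in control cryoinjury alone. Their recovery is an average and does not give that of a single member such as nppb, whose SE was 0.96 there. The labels do not say that libraries of a group came from separate batches of fish beyond the pooled ventricles, so p-values measure only the spread between these libraries. That spread exceeded counting error by 81.0 to 813 times, so no intervals from counting error are given, and no 2 libraries were duplicates.

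Replicate numbers were checked as pairs by correlating deviations from group means. The correlations were 0.103 to 0.112 for control sham against uninjured, and the block changed no member's call there. Single values were higher for uninjured cKO against control, which ran from 0.0055 to 0.187. No threshold is given and libraries of different replicate numbers were not correlated. Whether replicate numbers stand for pairs was thus not settled.

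The members and gene lists were chosen with earlier results of these data known. The rule for named genes takes all 9 members, tcf21, the 5 genes most like ankrd1a and at most 4 called genes of a list. Symbols came from the supplied name table and RefSeq, for 23499 of 25107 genes. Both desmin genes share 1 symbol in the name table and were told apart by chromosome and neighbouring genes.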

Additional observations from a re-analysis of the deposited data

How the results depend on the processing

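The direction of ankrd1a after cryoinjury was kept in every alternative, against sham and against uninjured ventricles. Its count of calls was less stable. Of the 9 members, 0 passed for control cryoinjury against sham with the lane as a covariate and 2 with the groups compared alone. Leaving out 1 library gave 0 each time. Over all genes these settings called 0, 1418 and 4 to 36, against 280 in the main fit. In cKO 3 passed with the groups compared alone, and 0 to 1 without 1 library. Calls over all genes were 1671 and 18 to 115 there, against 298 in the main fit. Averaged over arms 2 passed with the replicate block, by DESeq2's Wald test and with the groups compared alone. These settings called 2942, 3550 and 4598 of all genes, against 2401 in the main fit. For cryoinjury against uninjured 1 passed in control with library totals in place of TMM, with the lane and with the groups alone. Without 1 library 1 to 2 passed. Calls over all genes were 6222, 662, 2474 and 3447 to 5027, against 4852 in the main fit. In cKO 2 members passed with the replicate block, which called 2629 of all genes against 2171 in the main fit. For sham against uninjured 0 passed in control with the groups alone and 0 to 1 without 1 library. Calls over all genes were 291 and 758 to 2221, against 1562 in the main fit. In cKO 0 members passed with no filter, with the groups alone and without any 1 library. These settings called 202, 29 and 102 to 253 of all genes, against 214 in the main fit. The causes were not tested.

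Some uncalled folds changed sign. For nppb in control cryoinjury against uninjured the value was 0.51 with the replicate block, 0.77 with the lane and -1.02 to 1.98 without 1 library, and for sham against uninjured it was -2.76 to 0.25 without 1 library. For mustn1b in control cryoinjury against sham it was -0.020 to 0.46 without 1 library. For ankrd1a cKO over control was 0.040 uninjured and 0.24 after sham with the lane, and -0.44 to 0.48 after cryoinjury without 1 library. The arm difference of ankrd1a was -0.27 relative to sham and -0.075 relative to uninjured with the lane.

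Scaling to library totals, chosen after seeing the data, moved the median log2 change of all genes to 0.51 for cryoinjury against uninjured and 0.33 for sham against uninjured in control, to 0.28 for cryoinjury against uninjured in cKO, and to 0.20 and 0.17 for cryoinjury against sham in control and cKO. DESeq2's Wald test gave no adjusted p for ankrd1b for cryoinjury against sham in either arm or averaged. Counts limit ankrd1b and desmb, at most 35 and 254 per library.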
